A study of Mus musculus with 64 samples.

Results

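The genes described here are the general splicing factors of the hnRNP, SR and SF3 families. They were taken by symbol, as every gene whose name starts with Hnrnp, with Srsf and a digit, or with Sf3a or Sf3b and a digit. This gave 40 of the 23313 genes in the files and 71 of the 30970 RefSeq transcripts. They fall into 7 hnRNP genes of the A/B and D type, 1 of the C type, 4 of the F/H type, 1 of the K type, 2 of the L type, 2 of the M, Q and R type and 3 of the U type, 11 SR protein genes, 3 SF3A genes and 6 SF3B genes. The rule itself uses no measured value, but it was set with earlier results of these data known.

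Polyadenylated RNA was measured in 64 single cells sorted for red fluorescence from the dentate gyrus of mice of the strain Dcx-dsRed, aged 6 to 7 weeks. In these animals the fluorescent protein is driven by the promoter of doublecortin (Dcx), a microtubule-binding protein of newborn neurons. The labels name the cells as immature neurons, in 1 group, with no treatment, genotype contrast, time point or animal, so the cells make up 1 biological sample and cells are not replicates of a condition. No p-value is given for that reason. Differences are described by their size, and the share of all genes that reach the same size is given with the counts of members in each comparison. For the relation to Sox11 over all 64 cells and in alternative settings that share was not counted.

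Before an intron is removed, the nascent RNA is covered by hnRNP proteins and SR proteins. SR proteins bind exonic enhancers through an RNA recognition motif and recruit the splicing machinery through a domain rich in arginine and serine, while hnRNP proteins of several kinds bind silencers and often act against them. SF3A and SF3B are the protein complexes of the U2 small nuclear ribonucleoprotein that hold the branch point of the intron. Many of these genes splice their own transcripts in alternative ways, and several SR genes carry a so-called poison exon whose inclusion introduces a stop codon. Neurons and glia are known to differ widely in alternative splicing.

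The cells were sorted into clusters from their other genes, with the splicing factors left out. The largest cluster was oligodendrocyte-like with 31 of 64 cells (48.4%, exact 95% interval 35.8% to 61.3%), followed by 19 granule-lineage-like cells and by 14 cells whose markers were those of stem cells or astrocytes, here written stem/astrocyte-like. All 10 oligodendrocyte markers were detected, at 1 TPM (a transcript abundance corrected for length) or more, in at least 50% of the oligodendrocyte-like cells. In the granule-lineage-like cells all 8 dentate granule markers passed that bound, but so did 7 of the 8 in the oligodendrocyte-like cells, where their sum was lower (median 732 TPM against 1950 TPM, with ranges that overlapped). Snap25, a synaptic vesicle fusion protein, had a median of 4648 TPM in the granule-lineage-like cells. The glycolytic enzyme gene Aldoc had a median of 11608 TPM in the stem/astrocyte-like cells, where 9 of 10 markers passed. Of these 10, 6 also passed in the oligodendrocyte-like and 8 in the granule-lineage-like cells. Their sums were lower there (medians of 1014 and 2538 TPM against 20279 TPM), with ranges that overlapped. Dcx itself was detected in 10, 5 and 9 cells of these clusters, so most cells lay under the detection limit for this marker. The transcription factor gene Sox11, described further below, reached 1 TPM in 25 of 31, 19 of 19 and 14 of 14 cells in the same order. Of the 8 neuroblast markers, 2, 2 and 3 passed the 50% bound. How far the label of immature neurons holds was not tested on these markers. Snap25 was also at a median of 1899.6 TPM in the oligodendrocyte-like cells. The 10 pan-neuronal markers together had a median of 2878 TPM there (289.7 to 7833 TPM) and of 5856 TPM in the granule-lineage-like cells (2685 to 10442 TPM). By a marker score, 18 libraries held the programme of a second cluster, namely 11, 4 and 3 of the 31, 19 and 14. The libraries had an estimated 467047 to 4041092 reads (median 1083834), with none between 1310333 and 1926115 reads. The 21 deeper libraries included 13 oligodendrocyte-like, 6 granule-lineage-like and 2 stem/astrocyte-like cells. The median number of genes detected was 5236, 5513 and 4432 in these clusters, and its part in the differences below was not tested.

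The splicing factors were detected in most cells. A cell held 21 to 38 of the 40 (median 31, with 32 in oligodendrocyte-like, 33 in granule-lineage-like and 28.5 in stem/astrocyte-like cells), and 34 of the 40 (85.0%) were detected in at least 32 cells, against 29.5% of all genes above 0. Of the members, 7 were at 1 TPM or more in all 64 cells and 17 were in at least 60 cells. The median over members of their median level was 39.2 TPM, against 1.61 TPM over the 8045 genes detected in at least 25% of cells, of which 39 members are part. TPM is corrected for transcript length, so these levels can be set side by side between genes. Together the members made up 2203 TPM in cell 66 to 12449.6 TPM in cell 57, with a median of 6785 TPM.

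The 6 most abundant members include SR proteins and hnRNP proteins of several types. Srsf2, an SR protein of nuclear speckles, was the highest by a wide margin, at 96.0 to 4354 TPM (median 1214 TPM), and made up 3.38% to 43.1% of the members' sum (median 19%). Its medians were 1123 TPM in the oligodendrocyte-like, 1230.1 TPM in the granule-lineage-like and 1549 TPM in the stem/astrocyte-like cells, with ranges that overlapped. Hnrnpc, which binds uridine tracts, ranged from 0.78 to 1283 TPM (median 438 TPM), and Hnrnpk, which binds cytidine-rich RNA, from 0 to 2156 TPM (median 428 TPM). Hnrnpu, a nuclear scaffold protein, ranged from 5.09 to 1417 TPM (median 347 TPM). Hnrnpa2b1, which also carries myelin basic protein mRNA along oligodendrocyte processes, ranged from 13.7 to 951 TPM (median 272 TPM). Srsf3, the smallest of the classical SR proteins, ranged from 1.23 to 1171 TPM (median 237 TPM). Each of these 6 was detected in at least 63 cells. How much of their spread is technical was not tested.

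Of the other members, 4 were rarely seen. Sf3a2, which encodes a subunit of SF3A, was detected in 14 cells (21.9%, exact 95% interval 12.5% to 34%) and reached 37.2 TPM, and Srsf12, an SR-related protein that can act as a repressor, in 16 cells (25%, 15.0% to 37.4%) with up to 155 TPM. Hnrnpul1, of the U type, was detected in 20 cells (31.2%, 20.2% to 44.1%). Hnrnpa1, among the best studied hnRNP proteins, was detected in 23 cells (35.9%, 24.3% to 48.9%) and reached 1796 TPM in cell 47, and in each of the 23 it was at 10 TPM or more. It was detected in 1 of the 21 deeper and in 22 of the 43 shallower libraries, so its share over all cells joins unlike libraries, and the part of library class in it was not tested. Srsf4 and Hnrnpul2 were also below 32 cells, at 27 and 25. Sf3b1, the subunit that contacts the branch point, was in all 64 cells at 19.2 to 855 TPM, while the other SF3A genes Sf3a1 and Sf3a3 were in 41 and 45 cells.

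Variation between cells differed among the members. Among those detected in at least 32 cells, the quartile range of log2(TPM + 1) was largest for Hnrnpf at 7.10, Sf3a3 at 7.00, Hnrnpab at 6.21, Hnrnph2 at 5.72 and Sf3b4 at 5.33. The range was 1.05 for Srsf2 and 1.29 for Hnrnpl, which binds cytidine and adenosine repeats. Its median was 3.45 over the members and 4.59 over all genes detected in at least 32 cells. Hnrnpf, a binder of guanine runs, had a lower quartile of 0 and reached 727 TPM in cell 45. Members did not vary together by much: the median Spearman rho between pairs of members was 0.09 in the 31 oligodendrocyte-like, 0.02 in the 19 granule-lineage-like and 0.03 in the 14 stem/astrocyte-like cells, against 0.03, 0.01 and 0.01 over all gene pairs. These values share library and depth within a cell.

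**Figure D1:**
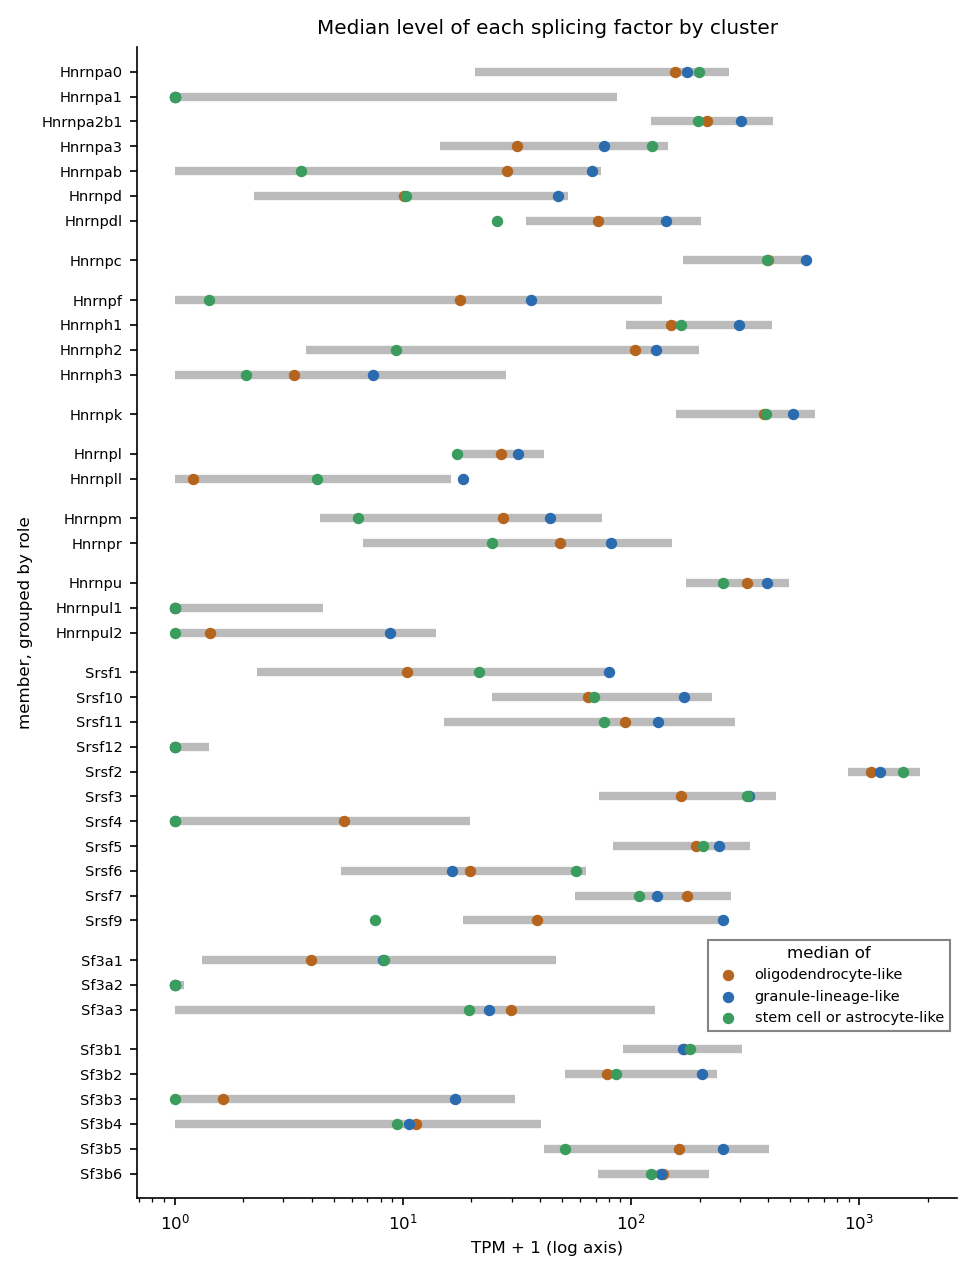
Median TPM + 1 (log axis) of each of the 40 members in the oligodendrocyte-like, granule-lineage-like and stem/astrocyte-like cells (points), with the quartile range over all 64 cells (grey bars). Srsf2 stands to the right of all others, with a median of 1214 TPM over the 64 cells, and Srsf9 and Hnrnpf have their lowest point in the stem/astrocyte-like cells.

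Summed over the 40 members, the granule-lineage-like cells had the highest median. It was 8131 TPM (5413 to 11050.2 TPM), against 7240 TPM (2203 to 12449.6 TPM) in the stem/astrocyte-like cells and 6122 TPM (2840 to 10937 TPM) in the oligodendrocyte-like cells. The ranges of the clusters overlapped, and the lowest granule-lineage-like cell lay above the lower quartile of the oligodendrocyte-like cells, 4508 TPM. The order held in each family except SF3: the hnRNP sum had medians of 3541, 2962 and 2233 TPM and the SR sum 3293, 2772 and 2267 TPM in the same order, while the SF3 sum had 955, 1035 and 918 TPM. In the deeper libraries alone the medians of the 40 were 8245 TPM in granule-lineage-like and 6269.9 TPM in oligodendrocyte-like cells, and in the shallower ones 8131 and 5460.3 TPM. The place of the stem/astrocyte-like cells depended on scaling, since with size factors from genes detected in at least 90% of cells the medians were 6409 TPM in granule-lineage-like, 9113 TPM in stem/astrocyte-like and 5769.5 TPM in oligodendrocyte-like cells.

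**Figure D2:**
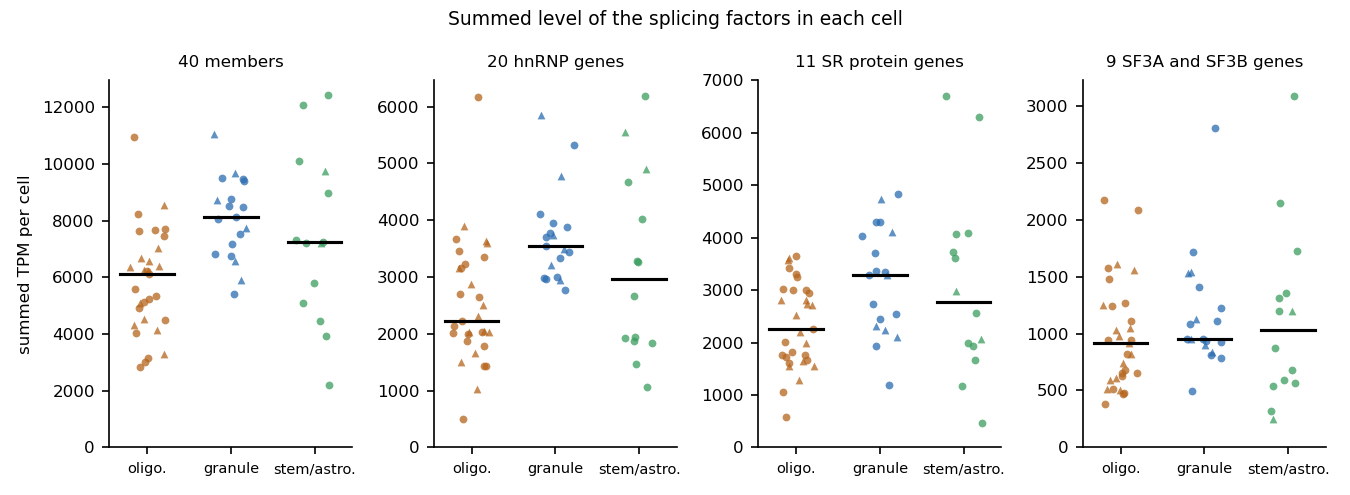
Summed TPM in each cell over the 40 members, the hnRNP genes, the SR protein genes and the SF3A and SF3B genes, by cluster (oligo., oligodendrocyte-like; granule, granule-lineage-like; stem/astro., stem/astrocyte-like). Triangles are the 21 deeper libraries, circles the 43 shallower ones and bars medians. The median over the 40 members was 8131 TPM in the granule-lineage-like cells and 6122 TPM in the oligodendrocyte-like cells.

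Granule-lineage-like cells were compared with oligodendrocyte-like cells gene by gene. Of the 39 members tested, 12 were at least 1 higher in mean log2(TPM + 1), against 22.5% of all genes tested, and 0 were at least 1 lower, against 15.2%. The share of members past the bound upward was 30.8%. The median difference was 0.74 over the members and 0.20 over all genes. Relative to that median of all genes, 10 members were at least 1 higher (17.9% of all genes) and 1 was at least 1 lower (19% of all genes). The count of 12 depended on settings, as did the share of all genes. It was 22 in the deeper libraries (36.7% of all genes) and 10 in the shallower ones (20.5%). It was 17 without libraries of a second programme (29.2%) and 6 with a pseudocount of 10 in place of 1 (9.67%). By class, the 12 members were 3 of 7 in the A/B and D type, 1 of 4 in the F/H type, 1 of 2 in the L type, 1 of 2 in the M and R types, 4 of 11 SR genes and 2 of 6 SF3B genes.

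Srsf10, an SR protein that turns into a repressor when it loses its phosphates, stood highest. It was at 0 to 501 TPM (median 170.3 TPM) in granule-lineage-like and 0 to 335 TPM (median 64.0 TPM) in oligodendrocyte-like cells, a difference of 2.15 in mean log2(TPM + 1), and the ranges overlapped. Hnrnpll, a paralog of Hnrnpl known from the splicing of Ptprc in T cells, was detected in 14 of 19 against 13 of 31 cells, with medians of 17.3 and 0.20 TPM and a difference of 2.13. Srsf1, a widely studied SR protein, had medians of 78.9 and 9.41 TPM and a difference of 2.09, although its highest cell, at 541 TPM, was oligodendrocyte-like. In the deeper libraries alone these 3 differences were 2.91, 2.61 and 1.50, and in the shallower ones 1.69, 1.99 and 2.41.

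At the other end no member reached the bound. Hnrnpul1 was lower by 0.97, detected in 4 of 19 against 12 of 31 cells with a median of 0 in both clusters. Srsf4 differed by -0.77, but its mean TPM went the other way, at 65.1 TPM in granule-lineage-like and 31.6 TPM in oligodendrocyte-like cells, because it was detected in fewer cells (6 of 19 against 18 of 31) and reached 470.0 TPM in one of them. On log2 of mean TPM + 1 its difference was 1.02, so no direction is given for Srsf4. Srsf6 differed by -0.53, with medians of 15.5 and 18.8 TPM.

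Stem/astrocyte-like cells had lower values than oligodendrocyte-like cells for most genes, with a median difference of -0.61 over all genes and -0.34 over the members. Of the 39 members, 5 were at least 1 higher (8.65% of all genes) and 9 at least 1 lower (36.5% of all genes). Relative to the median of all genes these counts were 9 and 5 (17.6% and 19.7% of all genes), and without libraries of a second programme they were 9 and 8 (13.4% and 31.9%). Of the F/H type, Hnrnpf and Hnrnph2 were among the 3 lowest members. Hnrnpf was detected in 5 of 14 against 22 of 31 cells, with medians of 0.42 and 16.9 TPM, and differed by -2.97. Hnrnph2, an X-linked paralog of Hnrnph1, had medians of 8.38 and 104 TPM and differed by -2.40, while Hnrnph1 differed by 0.29. Srsf9 had medians of 6.6 and 37.8 TPM and differed by -2.89.

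Higher in the stem/astrocyte-like cells were Srsf6, Hnrnpa3 and Hnrnpll. Srsf6, a classical SR protein, had a median of 56.3 TPM (1.08 to 819.6 TPM) against 18.8 TPM (0.71 to 245 TPM), a difference of 1.57. Hnrnpa3, an A/B type protein, had medians of 123 and 30.6 TPM and a difference of 1.55. Hnrnpll differed by 1.29, with a highest cell of 1040.5 TPM in cell 21, and this fell under the bound in the shallower libraries alone, at 0.80. In the shallower libraries the differences of Srsf6 and Hnrnpa3 were 2.02 and 2.01. The deeper libraries held 2 stem/astrocyte-like cells, too few for a value.

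The widest gaps lay between stem/astrocyte-like and granule-lineage-like cells. Over all genes the median difference was -0.69 and over the members -0.86. At least 1 lower were 17 of 39 members (40.9% of all genes) and at least 1 higher was 1 (10.7% of all genes), so the members' counts stood near and below the shares of all genes. Relative to the median of all genes 10 were lower and 4 higher (23.7% and 22.0% of all genes), and without libraries of a second programme 16 and 2 (40.4% and 12.9%). Srsf9 was detected in all 19 granule-lineage-like cells at 9.87 to 679.8 TPM (median 252 TPM) and in 7 of 14 stem/astrocyte-like cells at 0 to 231 TPM (median 6.6 TPM), a difference of -4.75. Hnrnpf differed by -3.72 and Hnrnph2 by -3.14. Hnrnpul2 was detected in 12 of 19 granule-lineage-like cells and in 0 of 14 stem/astrocyte-like cells, where its highest value was 0.32 TPM. Srsf6 was the member past the bound upward, at 2.10, and Hnrnpul1 and Sf3a1 differed by 0.39 and 0.37.

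**Figure D3:**
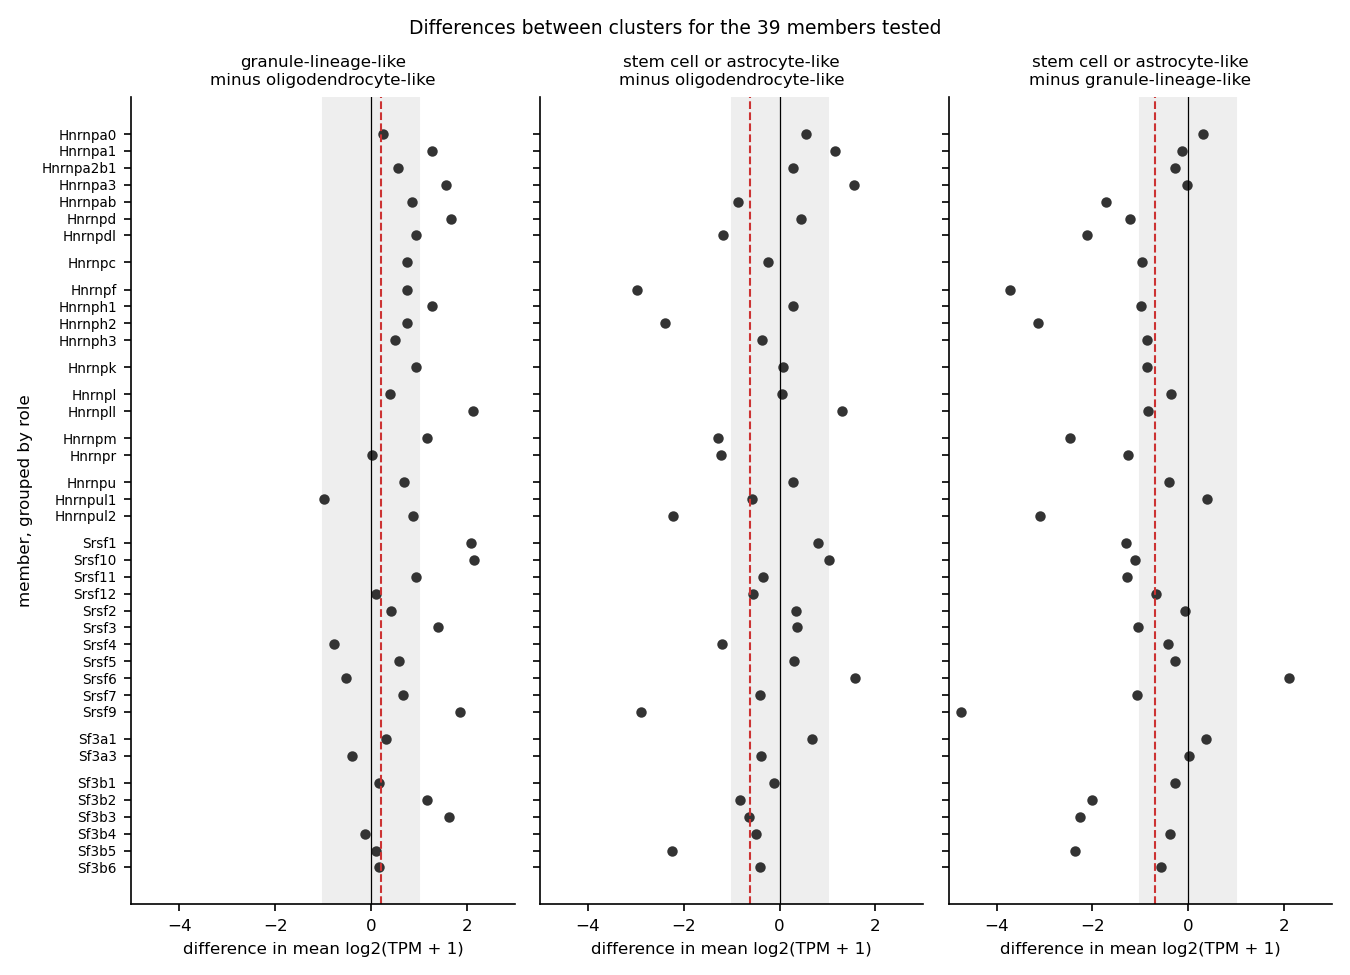
Difference in mean log2(TPM + 1) between each pair of clusters for the 39 members tested (points). The grey band spans -1 to 1 and the dashed red line is the median of all 8045 genes, at 0.20, -0.61 and -0.69. In the left panel 12 members lie to the right of the band and 0 to the left.

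The other genes of the splicing pathway, a list of 45 found in the files of which 44 were tested, were set beside the members and all genes. In granule-lineage-like against oligodendrocyte-like cells the median difference of the list was 0.08. Of the list 10 were at least 1 higher (22.5% of all genes) and 2 at least 1 lower (15.2% of all genes). The Sm core protein gene Snrpd1 differed by 2.43 and the U1 protein gene Snrpa by 2.06, while the SF3B-associated Phf5a differed by -1.31 and the U2AF-related Puf60 by -1.07. Against oligodendrocyte-like cells, stem/astrocyte-like cells had 2 higher (8.65% of all genes) and 18 lower (36.5% of all genes), with a list median of -0.83. The SR-like Tra2b differed by 1.41 and Ptbp1, the repressor of neuronal exons, by 1.03, while Phf5a differed by -3.50 and the U2 protein gene Snrpb2 by -2.37. Between stem/astrocyte-like and granule-lineage-like cells 1 was higher (10.7% of all genes), Ptbp1 at 1.23. Lower were 23 (40.9% of all genes), with a list median of -1.05. Snrpn, the imprinted Sm protein gene of the brain, differed by -3.26 with medians of 265 and 1569 TPM, and Snrpd1 by -2.99.

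Several members overlap other genes, and the library kit is not stated to mark strand, so reads of both partners cannot be told apart there. In the annotation of GRCm38, 16 of the 40 share exon bases with another gene, 5 of them over at least 10% of their exon bases. Srsf4 shares 43.0% with an antisense transcript, Hnrnpab 29.1% with Phykpl, Sf3a2 16.1% with Plekhj1, Srsf2 15.6% with Mettl23 and Hnrnpm 14.7% with a neighbour on its own strand. Hnrnpa1 and others of the A/B type also have processed pseudogenes of near-identical sequence, and how reads were divided among such copies was not tested.

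Isoforms were read from the 16 members with 2 or more RefSeq transcripts, 47 transcripts in all. The other 24 have 1. A transcript's share of its gene's TPM was taken in cells with at least 10 TPM of the gene, and depends on how the abundance estimator divided reads that fit more than one transcript. All 71 member transcripts were matched by accession to GENCODE M21 transcripts of GRCm38, which gave the sequences below. In most eligible cells 1 transcript held at least 99% of the gene: the median over 15 members with at least 10 eligible cells was 75.7% of cells, against 85.7% over 2038 genes. Srsf7, with 5 transcripts, had 1 such transcript in 10.7% of 56 cells and Hnrnpc, also with 5, in 19.4% of 62 cells, whereas Srsf1 had it in 92.3% of 39 cells.

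The stretches that tell apart the transcripts whose shares differed most are shown here for the reader to see what was gained or lost. In the first 3 the capitals mark bases that 1 transcript has and the other lacks, with 12 shared bases on each side in lower case. Hnrnpd, also called AUF1, has 2 such cassettes, of 57 bases (19 codons, chr5:99976534-99976590, minus strand) and 147 bases (49 codons, chr5:99963731-99963877, minus strand), and NM_001077267 has neither. In Hnrnpm a stretch of 117 bases (39 codons, chr17:33666530-33666646, minus strand) is in NM_029804 and not in NM_001109913.
Hnrnpd, 57-base cassette of NM_007516: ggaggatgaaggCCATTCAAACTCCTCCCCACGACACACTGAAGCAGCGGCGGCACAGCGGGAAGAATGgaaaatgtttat
Hnrnpd, 147-base cassette of NM_001077266: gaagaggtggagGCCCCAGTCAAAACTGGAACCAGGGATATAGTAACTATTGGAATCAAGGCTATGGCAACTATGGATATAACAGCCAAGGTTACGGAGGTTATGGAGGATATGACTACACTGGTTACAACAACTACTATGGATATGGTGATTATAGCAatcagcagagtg
Hnrnpm, 117-base stretch of NM_029804: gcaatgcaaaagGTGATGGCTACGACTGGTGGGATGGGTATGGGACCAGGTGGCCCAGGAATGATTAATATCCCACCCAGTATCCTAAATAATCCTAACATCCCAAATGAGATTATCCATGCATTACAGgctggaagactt

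The SR genes differ at their coding ends or by a stop codon. Srsf10 has alternative last coding stretches: 295 bases before the stop codon in NM_001080387 (chr4:135863729-135864023, plus strand), of which the first 60 are shown, and 58 bases in NM_010178 (chr4:135867126-135867183, plus strand). In NR_036615 of Srsf7 and NR_036613 of Srsf3, which the annotation marks as targets of nonsense-mediated decay, the extra exon is read for 25 bases (chr17:80205057-80205081, minus strand) and 31 bases (chr17:29039454-29039484, plus strand) before the stop codon in capitals. These exons are 460 and 456 bases long.
Srsf10, end of NM_001080387: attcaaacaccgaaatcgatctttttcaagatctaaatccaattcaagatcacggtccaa
Srsf10, end of NM_010178: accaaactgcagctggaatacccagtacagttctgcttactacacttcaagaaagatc
Srsf7, stop in NR_036615: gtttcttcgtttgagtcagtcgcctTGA
Srsf3, stop in NR_036613: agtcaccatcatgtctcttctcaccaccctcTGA

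Isoform shares differed between granule-lineage-like and oligodendrocyte-like cells by at least 20 percentage points in 5 of 15 members (25.9% of all genes tested), namely Hnrnpd, Srsf9, Hnrnpm, Srsf10 and Srsf5. Between stem/astrocyte-like and oligodendrocyte-like cells it was 6 of 14 (23.9% of all genes), and between stem/astrocyte-like and granule-lineage-like cells 6 of 14 (28.1% of all genes). As shares these counts are 33.3%, 42.9% and 42.9% of the members tested, above those of all genes in each comparison, but over 14 or 15 members. The excess did not hold in each setting. On shares of the summed TPM the counts were 6 of 15 (30.6% of all genes), 9 of 14 (34.7%) and 5 of 14 (37.3%), the last below all genes. Each gene was counted by its transcript with the largest difference, so genes with more transcripts had more ways to pass. The Srsf10 form NM_001080387 had a median share of 94.9% in 18 granule-lineage-like, 68.7% in 12 stem/astrocyte-like and 31.6% in 22 oligodendrocyte-like cells. It held more than 50% in 12, 8 and 10 of them, and its share of the summed TPM was 63.3%, 61.7% and 38.5%. Every cluster held cells with both forms, from 0% to 100%.

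In Hnrnpd, which binds adenosine- and uridine-rich elements, the form with neither cassette had a median share of 100% in 14 granule-lineage-like and in 7 stem/astrocyte-like cells and 0% in 14 oligodendrocyte-like cells. It was dominant in 11, 4 and 6 of these cells, and its shares of the summed TPM were 76.7%, 60.0% and 39.1%, a smaller contrast than the medians give. The form with the 147-base cassette alone was dominant in 6 oligodendrocyte-like cells and 1 cell of each other cluster. For Hnrnpm the form without the 117-base stretch had a median of 13.6% in oligodendrocyte-like and of 100% in granule-lineage-like as in stem/astrocyte-like cells, and was dominant in 8 of 18, 10 of 15 and 5 of 6. Its shares of the summed TPM, 42.7%, 35.9% and 68.3%, went in the other direction between the first 2 clusters, so no direction is given for Hnrnpm there.

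Srsf9 gave the sharpest contrast among the SR genes. Its transcript NR_036616 was dominant in 11 of 18 granule-lineage-like cells, 7 of 25 oligodendrocyte-like cells and 0 of 7 stem/astrocyte-like cells, with median shares of 95%, 0% and 0% and shares of the summed TPM of 76.2%, 55.4% and 0%. Both Srsf9 accessions match the same GENCODE transcript, so what sets them apart is not shown here. For Srsf5 the form NM_001079694 had medians of 82.2% in oligodendrocyte-like, 30.2% in granule-lineage-like and 83.6% in stem/astrocyte-like cells, and was dominant in 19 of 29, 8 of 19 and 9 of 13. Its shares of the summed TPM were closer, at 74.4%, 55.3% and 81.7%, and on these Srsf5 was under the bound between granule-lineage-like and oligodendrocyte-like cells. In granule-lineage-like cells the other 2 forms, NM_001079695 and NM_009159, were dominant in 5 and 6 cells. NM_001079694 and NM_009159 match the same GENCODE transcript, and all 3 forms have 807 coding bases. On median shares, Srsf10, Srsf5 and Srsf9 passed the bound between granule-lineage-like and oligodendrocyte-like cells in the deeper and in the shallower libraries taken alone. Among oligodendrocyte-like cells the Srsf10 form NM_001080387 had a lower median share in deeper than in shallower libraries, so its median above joins unlike libraries. Between stem/astrocyte-like and oligodendrocyte-like cells Srsf10 did not pass the bound in the shallower libraries alone, nor without libraries of a second programme.

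The stop-containing transcripts differed between the paralogs Srsf3 and Srsf7. For Srsf7 the form NR_036615 was the most frequent dominant form, in 25 of 56 cells. Its median share was 76.5% in 11 stem/astrocyte-like cells (8.19% to 98.6%), 37.3% in 26 oligodendrocyte-like cells (0% to 100%) and 22.9% in 19 granule-lineage-like cells (0% to 98.8%), and its shares of the summed TPM were 61.8%, 25.3% and 29.5%. The coding form NM_146083 was dominant in 12 of the 56 cells. For Srsf3 the form NR_036613 was dominant in 6 of 60 cells and held 17.1%, 14.6% and 13.1% of the summed TPM in the same order of clusters. Hnrnpa3 and Hnrnpc completed the members past the bound in the comparisons with stem/astrocyte-like cells. The Hnrnpa3 form NM_198090 had a median of 33.5% there and 0% in the other clusters, and the Hnrnpc form NM_001170983 had 14.2%, against 41.6% in oligodendrocyte-like cells. Against granule-lineage-like cells Hnrnpc passed the bound by the form NM_016884, with medians of 0% and 21.2%.

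**Figure D4:**
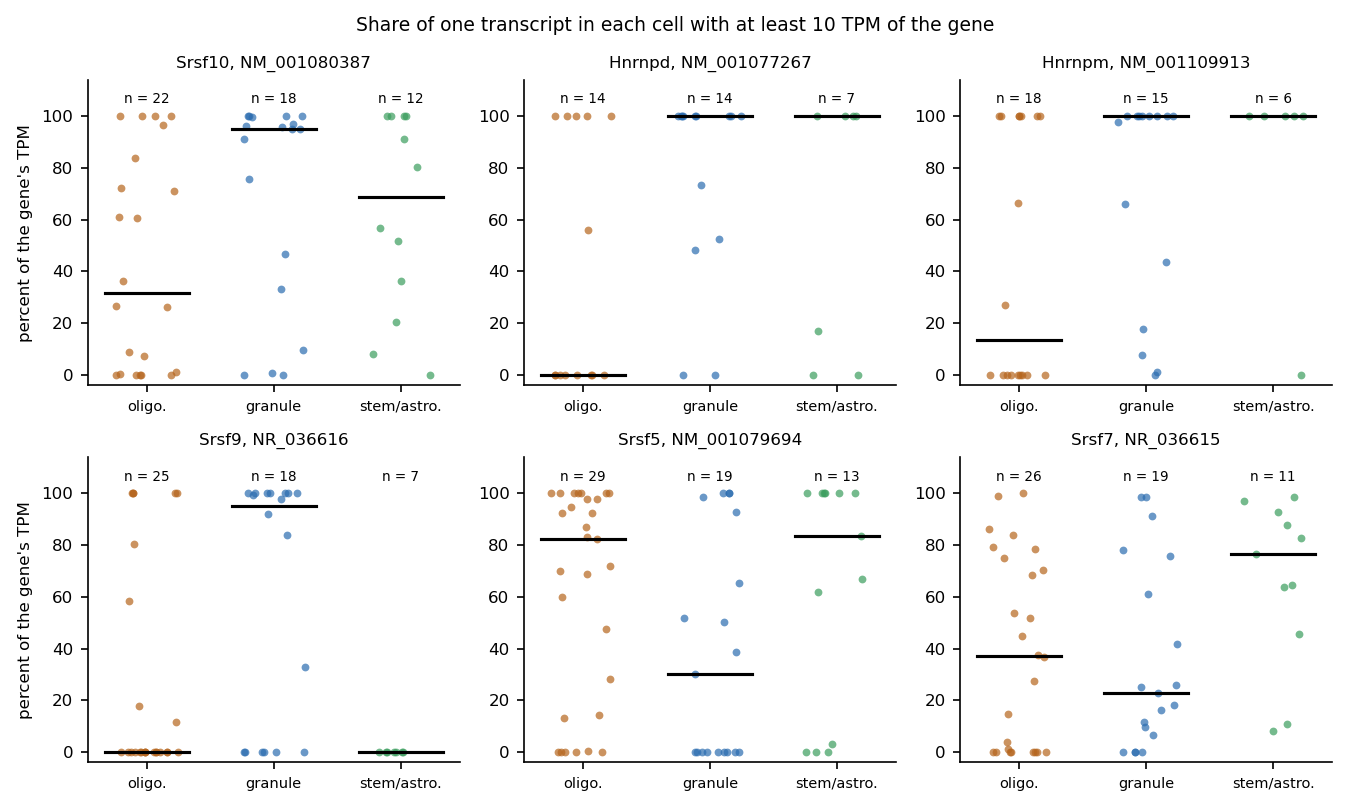
Share of 1 transcript in its gene's TPM, in percent, for each cell with at least 10 TPM of the gene (points), with the median of each cluster (bars) and the number of cells. Labels of clusters are as in the plot of summed levels. Srsf10 NM_001080387 has a median of 94.9% in granule-lineage-like and 31.6% in oligodendrocyte-like cells, and points fill the range from 0% to 100% in each.

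Sox11, a transcription factor of newborn neurons and progenitors, was detected in 25 of 31 oligodendrocyte-like, 19 of 19 granule-lineage-like and 14 of 14 stem/astrocyte-like cells, with medians of 11.0, 105.9 and 129 TPM and a highest value of 2829 TPM in cell 57. Cells with more Sox11 had a higher sum of the splicing factors within each cluster. Spearman's rho was 0.53 over 31 oligodendrocyte-like cells (Pearson's r on log values 0.49), 0.44 over 19 granule-lineage-like cells (r 0.39) and 0.50 over 14 stem/astrocyte-like cells (r 0.50). The points share library, depth and number of genes detected. In the oligodendrocyte-like cells Sox11 also went with the number of genes detected (rho 0.56), and rho of the sum was 0.34 after the ranks of genes detected were removed. It was 0.45 and 0.51 after the same step in the granule-lineage-like and stem/astrocyte-like cells. Without libraries of a second programme rho was 0.69, 0.55 and 0.65 in the same order of clusters, and in the shallower libraries alone 0.56, 0.55 and 0.51. Without the 2 cells farthest from the median Sox11 level rho was 0.34 in the granule-lineage-like cells, and in their 6 deeper libraries it was 0.20, so there it rests on few cells.

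**Figure D5:**
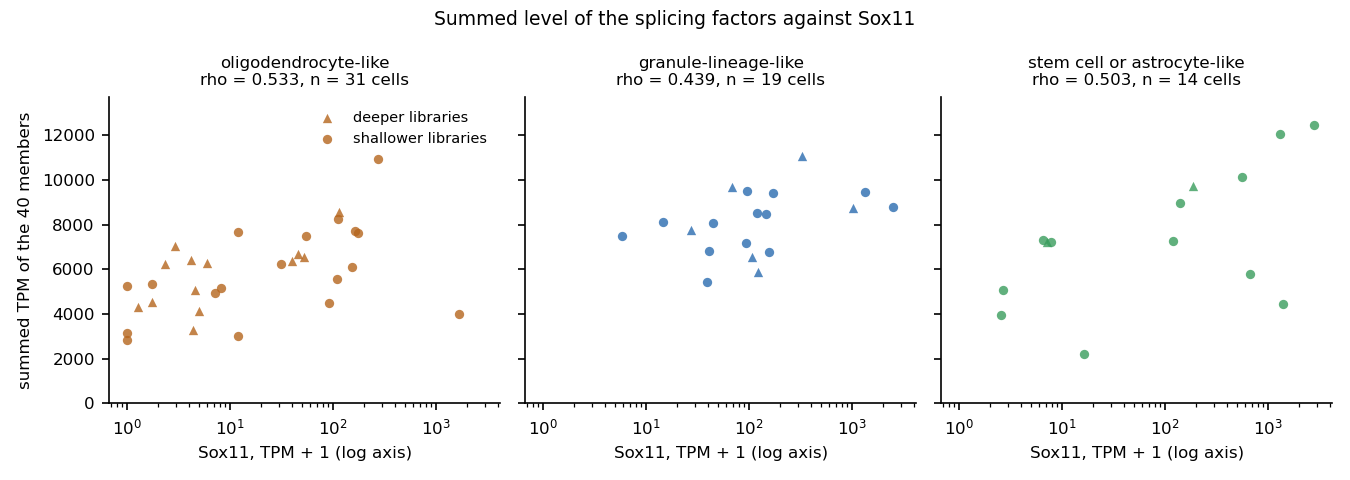
Summed TPM of the 40 members against Sox11 TPM + 1 (log axis) in each cell of the 3 clusters, with Spearman's rho. Triangles are deeper and circles shallower libraries. The correlation was 0.53, 0.44 and 0.50 over 31, 19 and 14 cells, and the stem/astrocyte-like cell with 2829 TPM of Sox11 has the highest sum, 12449.6 TPM.

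Among the 64 cells, the 16 with the highest Sox11 (157 to 2829 TPM) had a members' sum of 4021 to 12449.6 TPM (median 9081 TPM), and the 16 with the lowest (0 to 5.01 TPM) 2840 to 7512 TPM (median 5084 TPM). The next cells outside had 151 and 5.54 TPM of Sox11. Clusters were spread unevenly, since the lowest 16 held 13 oligodendrocyte-like cells and the highest 16 held 4, with 6 granule-lineage-like and 6 stem/astrocyte-like cells. The lowest 16 also had a median of 2406736 reads, against 1037090 reads in the highest. Srsf10 had medians of 258 TPM in the highest and 20.1 TPM in the lowest 16, Srsf7 275 and 69.6 TPM, and Hnrnpa2b1 325 and 119 TPM. Srsf6 went the other way, at 27.1 and 52.9 TPM. So did Hnrnpr at 53.58 and 75.65 TPM, Sf3b5 at 137 and 180 TPM and Sf3b4 at 13.3 and 15.4 TPM. How far the cluster makeup accounts for these values was not tested apart from the values within clusters.

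Gene by gene, few members reached rho of 0.4 with Sox11. Their share was above that of all genes in each cluster, but with 36 to 40 members measured the gap was of few members. No excess of members is read from these shares. In the granule-lineage-like cells 3 of 38 did (7.89%, against 4.27% of all genes), namely Srsf3 at 0.58, Hnrnpll at 0.57 and Hnrnpab at 0.41, and 0 reached -0.4 (4.43% of all genes). The 4 granule-lineage-like cells with the most Sox11 were cells 11, 2, 63 and 67, with 328, 1025, 1338 and 2531 TPM. Srsf3 was at 714, 503, 1171 and 439 TPM in them, and the highest of the other cells had 556 TPM. Hnrnpll was at 43.9, 41.7, 217 and 12.0 TPM and Hnrnpab at 291, 24.0, 456 and 122 TPM in the same cells. Cell 63, which also had the most Dcx of all cells at 212 TPM, was the highest granule-lineage-like cell for all 3. The lowest values of rho belonged to the SF3B subunit Sf3b6 at -0.39, to Hnrnpc at -0.18 and to Hnrnpd at -0.17. Sf3b6 was at 131, 72.5, 49.3 and 33.7 TPM in the 4 cells, against a median of 134 TPM in the cluster. In this cluster rho of the SR sum was 0.49, that of the hnRNP sum 0.10 and that of the SF3 sum -0.20.

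In the oligodendrocyte-like cells 6 of 40 members reached 0.4 (15.0%, against 6.78% of all genes) and 0 reached -0.4 (1.09% of all genes). Hnrnpa2b1 was highest at 0.62, and the lowest was Srsf6 at -0.26. After the ranks of genes detected were removed, 2 members remained at or above 0.4 in count. The share of all genes was not counted after that step, so an excess of members cannot be judged there. In the stem/astrocyte-like cells 6 of 36 reached 0.4 (16.7%, against 12.1% of all genes), with Hnrnpf highest at 0.74, and 1 reached -0.4 (7.85% of all genes), Sf3a1 at -0.46. Hnrnpf was at 205 TPM in cell 57, which had the most Sox11, and at 15.4 TPM or less in the other 13 cells, so the order there rests on low values. Over all 64 cells Hnrnpa2b1 at 0.46 and Srsf10 at 0.44 reached the bound, and the median rho of members was 0.17, against 0.05 over all genes. Within the oligodendrocyte-like, granule-lineage-like and stem/astrocyte-like cells Hnrnpa2b1 was at 0.62, -0.06 and 0.34. Srsf10 was at 0.45, 0.18 and 0.52 in the same order, so in the granule-lineage-like cells neither reached the bound.

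Isoform shares were set against Sox11 within clusters. There rho between Sox11 and the Srsf10 form NM_001080387 was 0.24 over 22 oligodendrocyte-like, -0.11 over 18 granule-lineage-like and 0.23 over 12 stem/astrocyte-like cells. For the Srsf7 form NR_036615 it was 0.15 over 26, -0.13 over 19 and -0.23 over 11 cells. The highest among all member forms was 0.54, for the Hnrnpa3 form NM_146130 over 19 oligodendrocyte-like cells, where the form NM_053263 had -0.47. It was followed by 0.46 for the Hnrnpm form NM_001109913 over 15 granule-lineage-like cells. No p-value is attached to these, since the cells come from 1 sample.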

How the data were processed

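The authors deposited 1 table per cell with a value for each of 30970 RefSeq transcripts. The deposited values sum to 999999 to 1000001 in each cell, so they were read as TPM, although the file headers call them RSEM expected counts, and no count model was fitted. RSEM, Bowtie2 and the mouse build mm9 are named without versions in the submitters' processing notes, and libraries were made with Nextera XT after capture on a Fluidigm C1 chip, per the labels' protocols. TPM were summed per symbol, without the 1037 transcripts that carry no symbol, and 48 transcripts whose symbols had turned into numbers were renamed through the RefSeq gene table of GRCm38. A gene was detected at 1 TPM or more, and a pseudocount of 1 was added before log2. Depth was estimated from the value that 1 read adds to transcripts of at least 1000 bases, and of the values near 1 read 71.8% to 80.3% lay within 10% of it. On 3 simulated libraries estimated and drawn reads agreed to ratios of 0.999 to 1.00. The estimate covers reads, not molecules, and exact (Clopper-Pearson) intervals were put on shares of cells, which cover counting error only. The labels state no second run or animal, so no batch other than the depth classes was defined.

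Cells were clustered by Ward linkage on 10 principal components of the 1000 most variable genes detected in at least 10% of cells, with the members left out, and 3 clusters gave the highest mean silhouette (0.262, against 0.232 for 2). A cluster was named from the marker list with the largest mean difference from the other cells, given at least 3 markers in at least 50% of its cells. Of the markers and pathway genes, Hbb-b1 and Ddx46 were not matched. A library held a second programme when its score for another cluster's list (pan-neuronal markers in place of the dentate granule list for granule-lineage-like cells) reached the 25th percentile of that cluster, and no doublet caller was run. Genes detected in at least 25% of cells were compared. Values in full were given by a rule: the 6 members with the highest median and the 4 in the fewest cells, the 3 highest and 3 lowest differences per pair of clusters, the extremes of rho with Sox11, the 4 largest isoform differences per pair and the 5 most variable members. The members, lists and thresholds were chosen with earlier results of these data known. Hnrnpul2 and the isoforms of Srsf3, Hnrnpa3 and Hnrnpc were named after their values were seen. The same holds for the members given for the cells with the highest and lowest Sox11. Alternatives were another pseudocount, scaling, filter, clustering, depth class and isoform minimum. Python 3.11.15, numpy 2.4.6, pandas 2.3.3, scipy 1.17.1, scikit-learn 1.9.0 and matplotlib 3.10.9 were used. Sequences come from GENCODE M21 transcripts of GRCm38, matched by RefSeq accession.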

Additional observations from a re-analysis of the deposited data

How the results depend on the processing

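No paired analysis was possible because the labels give 1 group, whose cell numbers pair nothing. Where the values below moved, the cause was not tested. The 40 members' median sum in granule-lineage-like cells was 6409 TPM with size factors and 6438 TPM without Srsf2. Size factors moved the median difference of all genes by -0.17, 0.14 and 0.32 in granule-lineage-like against oligodendrocyte-like, stem/astrocyte-like against oligodendrocyte-like and stem/astrocyte-like against granule-lineage-like cells.

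The share of all genes past the same bound stands in brackets and moved as well. Of granule-lineage-like against oligodendrocyte-like differences, members at least 1 higher numbered 6 with a pseudocount of 10 (9.67%). They numbered 6 on log2 of mean TPM + 1 (19.5%) and 22 in the deeper libraries (36.7%). Members at least 1 lower numbered 2 with a pseudocount of 0.1 (22.1%) or 2000 variable genes (15.7%). The count was 3 on log2 of mean TPM + 1 (18.1%) or in the shallower libraries (21.9%). It was 1 on medians (17.6%), with size factors (17.8%) or without libraries of a second programme (16.4%). It was also 1 with the members among the clustering genes (14.3%) or relative to all genes (19%). Srsf4 turned to 1.02 on log2 of mean TPM + 1. Stem/astrocyte-like against oligodendrocyte-like cells gave 2 higher with a pseudocount of 10 (4.52%). They gave 9 higher without libraries of a second programme (13.4%) or relative to all genes (17.6%). Lower were 14 with a pseudocount of 0.1 (51.0%), 4 with 10 (14.8%) and 5 relative to all genes (19.7%). Stem/astrocyte-like against granule-lineage-like cells gave 4 higher on log2 of mean TPM + 1 (21.5%) or relative to all genes (22.0%). They gave 2 higher without libraries of a second programme (12.9%). Lower were 10 with a pseudocount of 10 (20.6%), size factors (32.3%) or relative to all genes (23.7%), and 8 on log2 of mean TPM + 1 (30.9%).

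For Sox11, rho of the sum was 0.34 in oligodendrocyte-like cells after the ranks of genes detected were removed. In granule-lineage-like cells it was 0.39 as Pearson's r, 0.34 without the 2 cells farthest from the median Sox11 level and 0.20 in the deeper libraries. Members at or above 0.4 numbered 2 (ranks of genes detected removed, or all 64 cells) and 10 (without libraries of a second programme) in oligodendrocyte-like cells, 5 (the same) and 12 (deeper libraries) in granule-lineage-like cells, and 2 (all 64 cells) in stem/astrocyte-like cells. The share of all genes was not counted in these settings, so the counts have no background beside them. Hnrnpab in granule-lineage-like cells turned to -0.029 in the deeper libraries. The other 125 values of these comparisons kept their side of the bound or, for counts, stayed within 1.5 times. Summed levels were included when they moved by less than 1 standard deviation between cells. Under that rule a summed level can count as unmoved although the order of the clusters changed. Among single members 271 kept their side of the bound, 18 came past it, 14 fell short of it and 2 turned. Isoform counts were 4 to 9 over their alternatives, with 23.8% to 37.3% of all genes. The 6 deeper granule-lineage-like and 2 deeper stem/astrocyte-like libraries limit what depth classes can show.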
